A study of Chlamydomonas reinhardtii with 12 samples.

Results

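The genes described here are nuclear genes of the unicellular green alga Chlamydomonas reinhardtii. They encode some parts of the linear electron transport chain between the photosystems and beyond photosystem I, and some subunits of the chloroplast ATP synthase. They are 9 of the 17693 genes of the deposited table, taken by a list of identifiers. The choice was made with earlier results of these data known. All 9 were in the table, none was listed at 0 in any library, and all passed the filter on low values (3 or more of the 12 libraries with an FPKM of 1 or more), as did 12575 genes in all. Poly(A) RNA of CC-1690 cells, either wild type or the strain vip1-1, was sequenced to examine what inositol pyrophosphates do in the response to high light. vip1-1 is deficient in these signalling molecules, which are inositol phosphates that carry a diphosphate group. Cells grew at 25 ºC in liquid TAP medium, which contains acetate, so all 4 groups had an organic carbon source. Wild-type control and vip1-1 control were lit at 50 µmol m-2 s-1, and wild-type high light and vip1-1 high light at 1500 µmol m-2 s-1, and each group has 3 biological replicates. The labels do not give the duration of the high light, the nature of the vip1-1 allele, or whether the strain is a single clone.

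In linear electron flow, plastoquinol reduced by photosystem II passes electrons to the cytochrome b6f complex, which hands them to the small copper protein plastocyanin. Plastocyanin reduces photosystem I, photosystem I reduces ferredoxin, and ferredoxin-NADP+ reductase uses ferredoxin to make NADPH. The protons moved across the thylakoid membrane on the way drive the chloroplast ATP synthase. The cytochrome b6f complex and the ATP synthase are assembled from subunits encoded in the nucleus and in the chloroplast genome, and only nuclear subunits are described here.

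The values are FPKM, in which fragments are scaled to transcript length and to the mapped fragments of the library, so levels of different genes can be set side by side. Read depth is unknown. FPKM is relative to the whole library, and in a bulk culture a lower level in every cell and a loss of transcript from some of the cells cannot be told apart. Pearson's r of log2(FPKM + 1) across tested genes ranged from 0.931 to 0.988 between replicates of a group. Wild-type high light replicate 2 stood apart from replicate 3 of its group (r = 0.931) and had the highest level of all 9 genes among the 3 wild-type high light libraries. Replicate 3 had the lowest level of all 9. Between vip1-1 high light replicate 1 and the others of its group r was 0.934 and 0.937. That vip1-1 library had the highest level of 8 of the 9 genes in its group. The coefficient of variation of the 9 genes ranged from 1.01% to 14.8% for the wild type and from 2.07% to 11.7% for vip1-1 under control light. Under high light it ranged from 41.0% to 79.7% for the wild type and from 9.30% to 27.2% for vip1-1. Results that rest on wild-type high light replicate 2 are given with and without it.

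Of the cytochrome b6f genes, PETC (Cre11.g467689_4532.v6.1) encodes the Rieske iron-sulfur protein, which takes the electron from plastoquinol. Under control light the wild-type libraries read 923, 959 and 1091 FPKM, and under high light 387, 817 and 324 FPKM. The vip1-1 libraries read 980, 1024 and 929 FPKM in the first condition and 1291, 851 and 1022 FPKM in the other. Wild-type high light lay below the other 3 groups without overlap, and these 3 overlapped each other.

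PETM (Cre12.g546150_4532.v6.1) encodes a small membrane subunit of the complex. Wild-type replicates 1 to 3 had 1815, 1609 and 1635 FPKM under control light, against 465, 1158 and 307 FPKM under high light. The vip1-1 replicates had 2344, 2071 and 2618 FPKM, against 2448, 1709 and 1728 FPKM. Both vip1-1 groups overlapped each other, and vip1-1 high light overlapped wild-type control.

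PETO (Cre12.g558900_4532.v6.1) encodes a thylakoid phosphoprotein associated with the complex. It was the most even of the 9 genes in the wild type under control light, at 410, 414 and 418 FPKM, and under high light stood at 165, 370 and 114 FPKM. Control libraries of vip1-1 gave 634, 603 and 602 FPKM, and its high light libraries gave 536, 484 and 381 FPKM. vip1-1 control was above all other groups, and vip1-1 high light overlapped wild-type control.

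Of the soluble carriers, PCY1 (Cre03.g182551_4532.v6.1), which encodes plastocyanin, had the highest mean level of the 9 genes in every group and ranked 19 among all genes of the table in wild-type control, and 8 in the control libraries of vip1-1. The wild type had 7427, 6641 and 6344 FPKM under control light but 3154, 5970 and 1657 FPKM under high light. The corresponding vip1-1 levels were 9430, 9060 and 8753 FPKM, and then 7584, 7715 and 6252 FPKM. The wild-type high light values were the most scattered, and replicate 2 came close to the wild-type control range.

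PETF (Cre14.g626700_4532.v6.1) encodes the main chloroplast ferredoxin. Levels of 5871, 5659 and 5878 FPKM in the wild type under control light stood against 907, 2194 and 572 FPKM under high light. For vip1-1 the control libraries had 7182, 6754 and 6724 FPKM and those from high light 4486, 4043 and 3197 FPKM. The 4 groups followed each other without overlap, in the order vip1-1 control, wild-type control, vip1-1 high light, wild-type high light.

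FNR1 (Cre11.g476750_4532.v6.1) encodes ferredoxin-NADP+ reductase. Wild-type levels were 467, 502 and 616 FPKM under control light and only 66.1, 163 and 30.0 FPKM under high light. Those of vip1-1 were 581, 618 and 507 FPKM, then 391, 366 and 226 FPKM. The control groups overlapped, vip1-1 high light lay below both, and wild-type high light lay below all 3.

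Of the ATP synthase genes, ATPC (Cre06.g259900_4532.v6.1) encodes the gamma subunit, the rotating shaft that carries the redox switch of the enzyme. The wild type had 590, 602 and 720 FPKM under control light, but 50.3, 120 and 42.4 FPKM under high light. The same conditions gave 519, 537 and 484 FPKM, then 278, 263 and 205 FPKM, for vip1-1. ATPD (Cre11.g467569_4532.v6.1) encodes the delta subunit of the stator. From 756, 793 and 956 FPKM under control light, wild-type levels were down to 98.8, 180 and 88.5 FPKM under high light. In vip1-1 the 3 control libraries held 530, 635 and 517 FPKM, and the 3 from high light held 424, 362 and 302 FPKM. For both genes the 4 groups did not overlap and had the order wild-type control, vip1-1 control, vip1-1 high light, wild-type high light.

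ATPG (Cre11.g481450_4532.v6.1) encodes a subunit of the peripheral stalk in the membrane. Wild-type libraries had 1718, 1506 and 1831 FPKM under control light, compared with 503, 863 and 337 FPKM under high light. Those of vip1-1 had 1534, 1478 and 1482 FPKM, compared with 1111, 943 and 956 FPKM. The order of the groups was that of ATPC and ATPD, with overlapping control groups. For all 9 genes wild-type high light was thus the lowest group, and it did not overlap the next group up. Of all tested genes, 16.8% had wild-type high light below wild-type control without overlap, and 12.8% had it below vip1-1 high light. The share of all genes for which it lay below every other group was not counted.

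**Figure D1:**
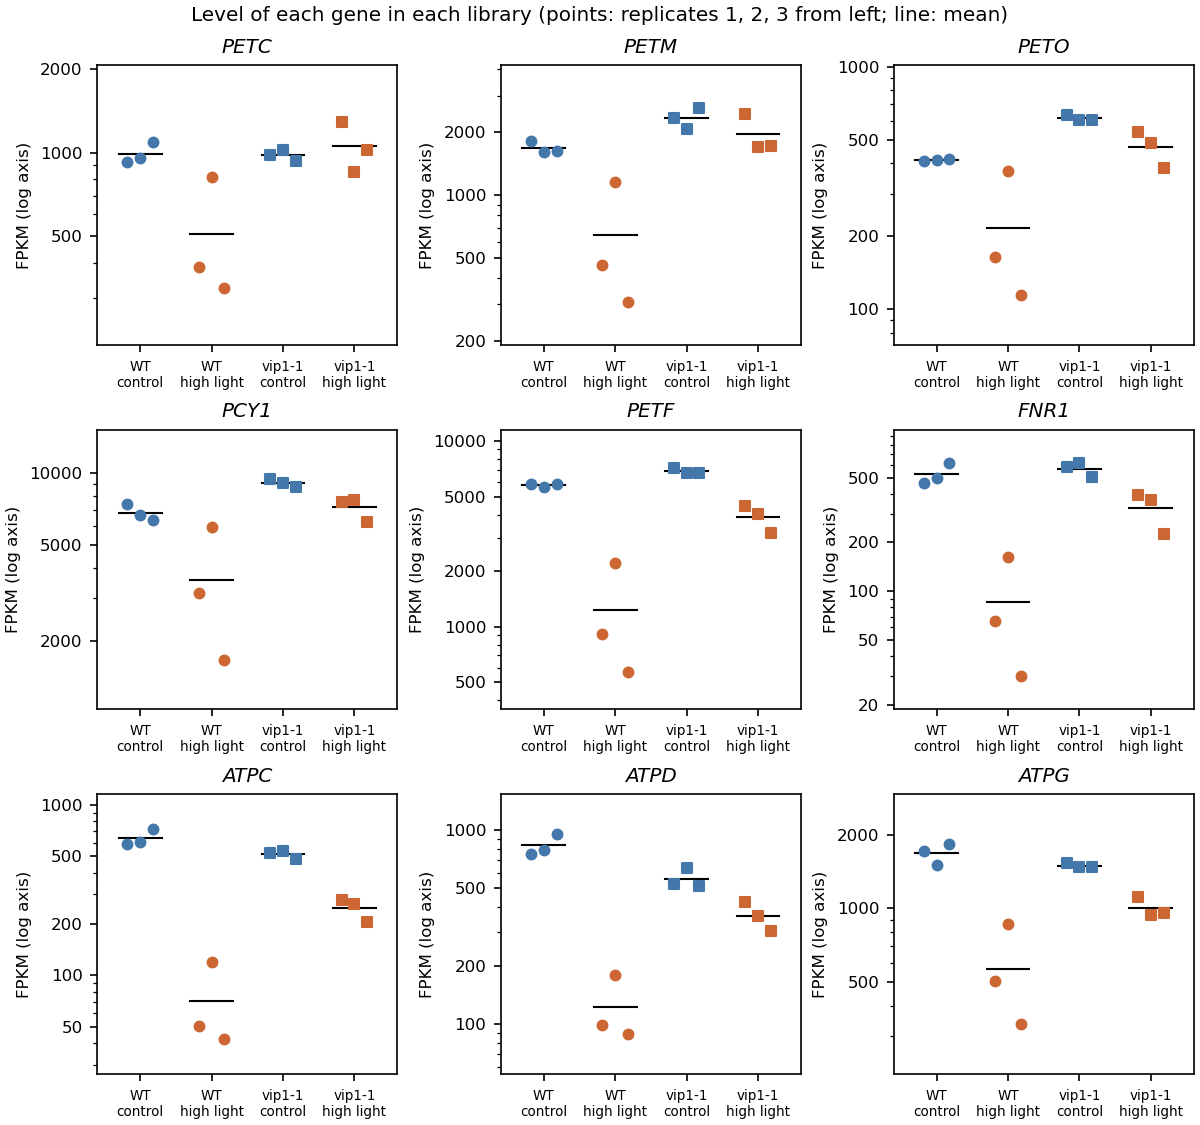
FPKM of the 9 genes in each of the 12 libraries on a log axis, with replicates 1, 2 and 3 of each group from left to right and a line at the group mean (circles wild type, squares vip1-1, blue control, orange high light). In every panel the 3 wild-type high light libraries are the lowest group, and replicate 2 is the highest of them.

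The light response of the wild type was examined first. All 9 genes fell in high light (limma, Benjamini-Hochberg over all 12575 tested genes, threshold 0.05), where 13.7% of all tested genes were lower by the same rule. For all 9 genes the 3 high light libraries lay below the 3 control libraries, which held for 16.8% of tested genes. The falls were unequal between the genes. ATPC fell the most, by 9.84-fold (-3.3 on the log2 scale of FPKM + 1, SE 0.31, limma adjusted p = 2.40e-05). On that scale FNR1 changed by -2.91 (SE 0.47, limma adjusted p = 0.000458), ATPD by -2.82 (SE 0.24, limma adjusted p = 1.61e-05) and PETF by -2.47 (SE 0.37, limma adjusted p = 0.000282). Only 0.374% of tested genes had a more negative change than ATPC, and 1.06% a more negative one than PETF. ATPG (-1.67, SE 0.26, limma adjusted p = 0.000381) and PETM (-1.62, SE 0.38, limma adjusted p = 0.00400) were intermediate.

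The other cytochrome b6f genes and plastocyanin had the smallest falls. The log2 change of PETC was -1.08 (SE 0.29, limma adjusted p = 0.00832), that of PETO -1.11 (SE 0.33, limma adjusted p = 0.0141) and that of PCY1 -1.11 (SE 0.34, limma adjusted p = 0.0173). The median of the 9 was -1.67, against 0.39 over all tested genes, so relative to the median gene ATPC changed by -3.69 and PETC by -1.47. Without wild-type high light replicate 2 the changes were larger, from -1.48 for PETC to -3.75 for ATPC. FNR1 moved to -3.53. When the fit held the 6 wild-type libraries alone, PETO (adjusted p = 0.0522) and PCY1 (adjusted p = 0.0643) did not pass, by limma. Under quantile normalization PETC (limma adjusted p = 0.0574) and PCY1 (limma adjusted p = 0.0914) did not pass. PCY1 changed by -0.65 without wild-type high light replicate 3 and did not pass without wild-type control replicate 1 (limma adjusted p = 0.0501).

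In vip1-1, ATPC alone of the 9 genes passed the threshold for a fall in high light, changing by -1.05 on the log2 scale (SE 0.31, limma adjusted p = 0.0218). By the same rule 4.09% of tested genes were lower. The other changes ran from -0.83 for PETF (95% interval -1.64 to -0.02, limma adjusted p = 0.0906) and for FNR1 (-1.87 to 0.21, limma adjusted p = 0.176) through -0.63 for ATPD (-1.17 to -0.1, limma adjusted p = 0.0564) and -0.58 for ATPG (limma adjusted p = 0.0947). PETO had -0.41, PCY1 -0.34 and PETM -0.27, with limma adjusted p of 0.335, 0.434 and 0.578. The change of PETC was 0.09 (95% interval -0.55 to 0.72, limma adjusted p = 0.817), and its sign depended on the scaling and the libraries, between -0.34 and 0.37 over the alternatives. The median of the 9 was -0.58, against 0.38 over all tested genes.

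In 7 of the 9 genes, PETC and PETM being the exceptions, the 3 vip1-1 high light libraries lay below the 3 vip1-1 control libraries, which held for 5.77% of tested genes. The spread in the test was shared by all 4 groups and so included the scattered wild-type high light libraries. When the fit held the 6 vip1-1 libraries alone, 6 of the 9 genes fell, namely PCY1, PETF, FNR1, ATPC, ATPD and ATPG, where 3.07% of all tested genes were lower. Without wild-type high light replicate 2, which is no vip1-1 library, PETF, FNR1, ATPC, ATPD and ATPG fell, 5 of the 9 where 5.03% of all tested genes were lower. The call of ATPC was lost when vip1-1 control replicate 1, vip1-1 control replicate 2 or vip1-1 high light replicate 3 was left out, and under quantile normalization.

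**Figure D2:**
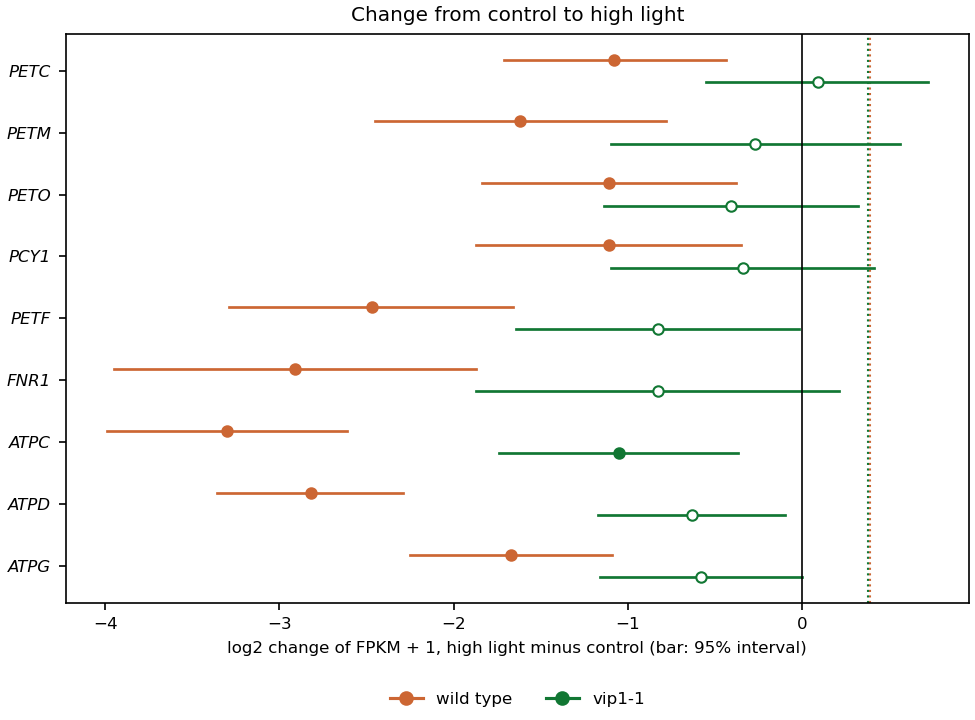
Log2 change of FPKM + 1 from control to high light for each gene in the wild type (orange) and vip1-1 (green), with 95% intervals from limma; filled circles passed the threshold and open circles did not, and dotted lines mark the median of all tested genes (0.39 and 0.38). The wild-type changes run from -1.08 to -3.3 and the vip1-1 changes from 0.09 to -1.05.

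Under control light none of the 9 genes differed between the strains by the limma fit, 1 of them (ATPD) having an unadjusted p under 0.05. In all tested genes 6.39% were higher and 26.0% lower in vip1-1. The log2 differences of FPKM + 1, vip1-1 minus wild type, ran from 0.57 for PETO (95% interval -0.16 to 1.3, limma adjusted p = 0.214) to -0.57 for ATPD (-1.11 to -0.04, limma adjusted p = 0.0926). That of PETM was 0.47, that of PCY1 0.42 and that of PETC -0.02. The median over all tested genes was -0.29, and relative to it PETO stood at 0.85, ATPD at -0.29 and ATPC at -0.02.

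The control libraries were even, and with these 6 libraries alone in the fit 6 of the 9 genes passed. PETO (adjusted p = 0.000414), PCY1 (adjusted p = 0.00434), PETM (adjusted p = 0.00810) and PETF (adjusted p = 0.0102) were then higher in vip1-1, while ATPD (adjusted p = 0.00745) and ATPC (adjusted p = 0.0301) were lower, all by limma. The direction of ATPC depended on the scaling, since its difference over all 12 libraries was -0.31 as deposited and 0.04 with each library centred on its median. In that fit of 6 libraries 11.9% of all tested genes were higher and 42.7% lower. The libraries of both strains did not overlap for the same 6 genes, with PETM, PETO, PCY1 and PETF above in vip1-1 (14.9% of tested genes) and ATPC and ATPD below (48.1% of tested genes).

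In high light all 9 genes were higher in vip1-1 than in the wild type (limma, adjusted p under 0.05), where 12.1% of tested genes were. The 3 vip1-1 libraries lay above the 3 wild-type libraries for all 9, which held for 12.8% of tested genes. FNR1 had the largest log2 difference, 2.19 (SE 0.47, limma adjusted p = 0.00335), or 4.58-fold. ATPC differed by 1.94 (SE 0.31, limma adjusted p = 0.000632), PETF by 1.89 (SE 0.37, limma adjusted p = 0.00195), PETM by 1.81 (SE 0.38, limma adjusted p = 0.00282) and ATPD by 1.62 (SE 0.24, limma adjusted p = 0.000417). The smallest differences were 1.27 for PETO, 1.18 for PCY1, 1.15 for PETC and 0.92 for ATPG (limma adjusted p of 0.00928, 0.0159, 0.00763 and 0.0142). The median was 1.62, against -0.28 over all tested genes.

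Without wild-type high light replicate 2 the differences ran from 1.28 for ATPG to 2.81 for FNR1, and all 9 passed, where 12.3% of all tested genes were higher. Without wild-type high light replicate 3 those of PCY1 and ATPG were 0.72 and 0.6, and all 9 passed, where 11.8% of all tested genes were higher. When the fit held the 6 high light libraries alone, PETM, PETF, FNR1, ATPC and ATPD passed, 5 of the 9 where 6.37% of all tested genes were higher, while PETC (adjusted p = 0.0599), PETO (adjusted p = 0.0687), ATPG (adjusted p = 0.0831) and PCY1 (adjusted p = 0.0874) did not, by limma.

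**Figure D3:**
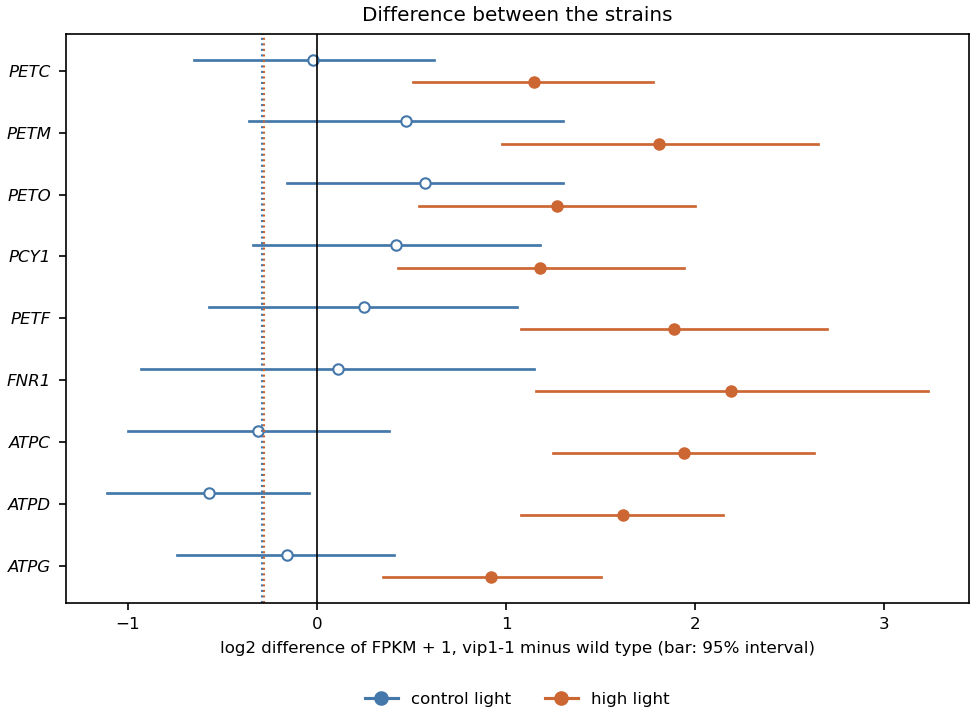
Log2 difference of FPKM + 1 between vip1-1 and the wild type for each gene in control light (blue) and high light (orange), with 95% intervals from limma; filled circles passed the threshold, and dotted lines mark the medians of all tested genes (-0.29 and -0.28). The high light differences lie between 0.92 and 2.19 and the control differences between -0.57 and 0.57.

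Whether the light effect itself differed between the strains was tested by the interaction, the log2 change in vip1-1 minus that in the wild type. It was positive for all 9 genes, with a median of 1.34 against 0 over all tested genes. The 9 values come from the same 12 libraries, so their common sign is not 9 separate results. The interaction passed the threshold for ATPC and ATPD, where 3.82% of all tested genes passed in this direction. For ATPC the interaction was 2.25 (SE 0.44, limma adjusted p = 0.0136) and for ATPD 2.19 (SE 0.34, limma adjusted p = 0.00604). FNR1 had 2.08 (95% interval 0.61 to 3.55, limma adjusted p = 0.0788), PETF 1.64 (0.49 to 2.79, limma adjusted p = 0.0768), PETM 1.34 (0.17 to 2.52, limma adjusted p = 0.146), PETC 1.17 (0.27 to 2.06, limma adjusted p = 0.103) and ATPG 1.09 (0.27 to 1.91, limma adjusted p = 0.0951). PCY1 and PETO had the smallest, at 0.76 (-0.31 to 1.84, limma adjusted p = 0.353) and 0.71 (-0.33 to 1.74, limma adjusted p = 0.373).

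Whether the other 7 genes passed depended on the libraries used. Without wild-type high light replicate 2 the interaction passed for all 9 genes, from 1.18 for PETO (limma adjusted p = 0.0101) to 2.7 for ATPC (limma adjusted p = 0.000168) and FNR1 (limma adjusted p = 0.00480), while the share of all tested genes past the threshold in this direction was 5.85%. Without wild-type high light replicate 3, in contrast, it was 0.34 for PETO (limma adjusted p = 0.610) and 0.3 for PCY1 (limma adjusted p = 0.559). None of these 7 genes passed in that fit, where 4.25% of all tested genes passed in this direction. ATPC and ATPD passed in each of the 12 fits that left out 1 library.

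The summed share of the 9 genes in the FPKM total of a library was 2.65%, 2.52% and 2.59% in the wild type under control light, against 0.882%, 1.76% and 0.533% under high light. For vip1-1 it was 3.10%, 2.99% and 2.95%, against 2.59%, 2.38% and 2.10%. No 2 groups that differ in light or in strain alone overlapped, and each of these 4 comparisons had p = 0.1 by a two-sided exact permutation test, which is the lowest value possible for 3 libraries against 3. PCY1 and PETF made up between 62.7% and 70.3% of this sum in every library.

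Ratios between genes within a library do not depend on how the library was scaled. The pairs were chosen after the values had been seen, and 8 ratios were compared in 4 contrasts each, 32 tests in all. A ratio that did not overlap between groups had p = 0.1 by the same exact permutation test and an adjusted p of 0.133 over the 32. The ratio of ATPC to PETC in the wild type was 0.642 ± 0.0162 (SD, n = 3) under control light and 0.136 ± 0.00980 under high light, where it ran only from 0.130 to 0.147 although the FPKM of both genes varied widely between these libraries. In vip1-1 it was 0.525 ± 0.00451 in control and 0.242 ± 0.0588 in high light. The 4 groups did not overlap.

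Relative to plastocyanin, ferredoxin was lower under high light in both strains. The wild-type ratio of PETF to PCY1 was 0.856 ± 0.0681 under control light and 0.333 ± 0.0412 under high light, and the vip1-1 ratio was 0.758 ± 0.0117 and 0.542 ± 0.0431 (SD, n = 3), with no overlap between any groups. The ratio of PETF to FNR1 overlapped between the vip1-1 groups (12.2 ± 1.18 and 12.2 ± 1.69) and between the strains at each light level, and was higher in wild-type high light (15.4 ± 3.18) than in wild-type control (11.1 ± 1.53).

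Within the ATP synthase, ATPD to ATPG went from 0.496 ± 0.0486 to 0.223 ± 0.0352 in the wild type without overlap, while the vip1-1 values of 0.374 ± 0.0476 in control and 0.360 ± 0.0383 in high light overlapped. ATPC to ATPG went from 0.379 ± 0.0309 to 0.122 ± 0.0200 in the wild type and from 0.343 ± 0.0188 to 0.248 ± 0.0320 in vip1-1, without overlap in either strain. Within the cytochrome b6f genes, PETO to PETC overlapped between the wild-type groups (0.420 ± 0.0323 under control and 0.410 ± 0.0528 under high light). The vip1-1 groups did not overlap in this ratio, at 0.628 ± 0.0338 and 0.452 ± 0.103. PETM to PETC, in contrast, went from 1.71 ± 0.236 to 1.19 ± 0.235 in the wild type without overlap. In vip1-1 it went from 2.41 ± 0.398 to 1.86 ± 0.161, also without overlap.

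**Figure D4:**
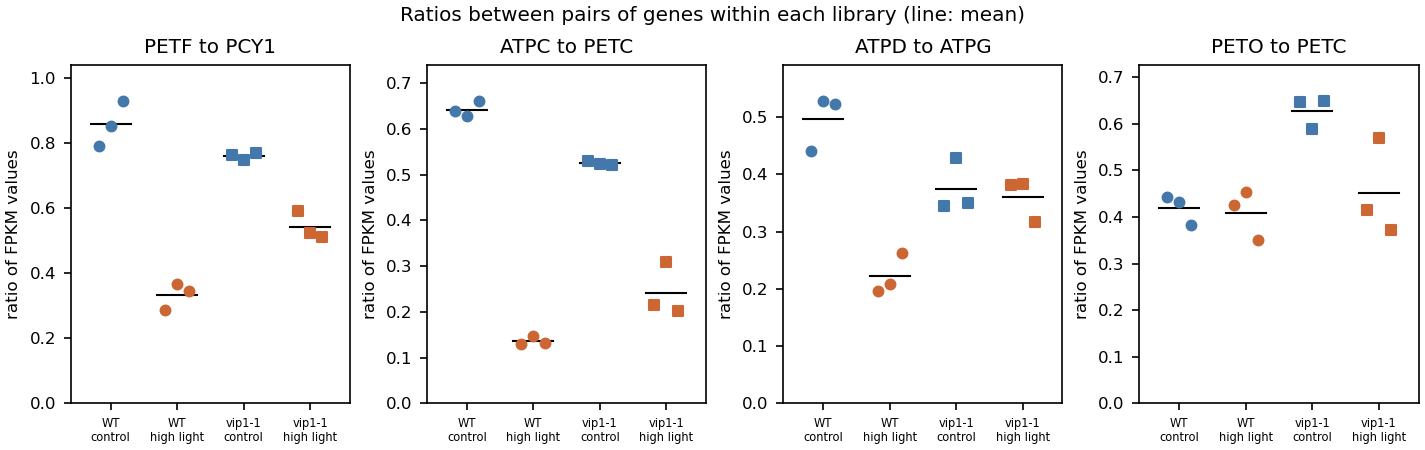
Ratio of the FPKM values of 2 genes within each library for 4 pairs, with replicates 1, 2 and 3 of each group from left to right and a line at the group mean; each axis starts at 0. The ratio of ATPC to PETC lies between 0.130 and 0.147 in the 3 wild-type high light libraries, and PETO to PETC overlaps between the wild-type groups.

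The patterns of the 9 genes over the 12 libraries were compared by the root mean square difference of log2(FPKM + 1), after each gene was centred on its own mean, so that a small value means a like pattern. PETO and PCY1 were the most alike pair (0.126), and PCY1 was the nearest to PETO of all 12574 other tested genes. In that ranking the nearest other member stood at 2 for PCY1 and FNR1, and at 7 for PETF and ATPC. It stood at 9 for ATPD, 11 for PETM, 56 for PETC and 76 for ATPG, so genes outside the 9 were often nearer. FNR1 and PETF differed by 0.232, ATPC and ATPD by 0.291, and PETC and ATPC, the farthest pair, by 0.903. ATPG was nearer to PCY1 (0.336) than to ATPD (0.439) or ATPC (0.652). The order of the pairs thus did not follow the complexes alone.

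Genes outside the 9 with the pattern most like their mean were Cre04.g229300_4532.v6.1 (0.158), Cre01.g049000_4532.v6.1 (0.166), Cre13.g577100_4532.v6.1 (0.167), Cre08.g359350_4532.v6.1 (0.169) and Cre09.g415950_4532.v6.1 (0.171). Cre04.g229300_4532.v6.1 had a mean of 367 FPKM under control light and 131 under high light in the wild type, against 433 and 292 FPKM for vip1-1. The tables used here give no names for these identifiers.

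In the RefSeq gene order of assembly v5.5 the 9 genes have 18 immediate neighbours, of which 11 were tested. In the wild type 4 of these rose and 2 fell in high light, where 44.7% of all tested genes were higher and 13.7% lower, with log2 changes from -1.25 to 1.26 and a median of 0.14 (limma, adjusted p under 0.05). The 2 that fell lie beside ATPC and ATPG.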

How the data were processed

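Poly(A) RNA of 12 libraries was measured, 3 in each of 4 groups named by the sample titles. The authors deposited 1 table of FPKM values per gene and library. HISAT2 and StringTie are named, without versions, in the submitters' processing notes; build and filters are not given in the sources used here. PETO and ATPG are among 6218 genes with more than 6 decimals, and how these values were made is not stated. Low values (FPKM up to 0.15) held no steps of whole reads: over 66 pairs of libraries the commonest ratio held at most 3.09% of genes. Depth is unknown, so no counting interval is given.

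Values were transformed to log2(FPKM + 1), a scale that understates changes of low genes. Genes reaching an FPKM of 1 in 3 or more libraries were fitted with limma 3.58.1 in R 4.3.3 (4 group means, empirical Bayes with a variance trend, all 12 libraries sharing a spread per gene). P-values are two-sided, adjusted by Benjamini-Hochberg over 12575 genes, with a threshold of 0.05. The fit was also run on simulated data in which each gene had the same spread in all 4 groups. That run could not test the effect of the wider spread in wild-type high light. Figures used matplotlib 3.10.9 in Python 3.11.15.

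The 9 genes and the lists were chosen with earlier results of these data known. All 9 are described, and genes of like pattern were the 5 nearest. Planned lists of other carriers, assembly factors, mitochondrial ATP synthase and photosystem subunits, and the gene that vip1-1 is named for, could not be matched by name, since the gene table used has 0 gene names, and are not analysed here. Same-numbered replicates deviated together in 4 of 18 pairs (correlation of deviations over 0.1, range -0.49 to 0.48). Between vip1-1 control and vip1-1 high light the correlations were -0.11, 0.48 and 0.18 for replicates 1, 2 and 3. Differently numbered pairs were not set beside them, so this count cannot settle whether the numbers pair libraries. The main fit did not treat them as pairs. The alternatives changed the pseudocount, filter, scaling, variance model, threshold or set of libraries, added a replicate block, or omitted 1 library. Leaving out replicate 2 of both high light groups was added after seeing the data.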

Additional observations from a re-analysis of the deposited data

Results flagged for a closer look

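The light effect on ATPC differed between the strains by the interaction term of the limma fit, 2.25 on the log2(FPKM + 1) scale (adjusted p = 0.0136), with a fall of 9.84-fold in the wild type and of 2.08-fold in vip1-1. The light effect on ATPD differed as well, by 2.19 (limma adjusted p = 0.00604). Its log2 change was -2.82 in the wild type and -0.63 in vip1-1, where it did not pass the threshold (limma adjusted p = 0.0564). In both genes all 3 high light libraries lay below all 3 control libraries in each strain. In the wild type this held for all 9 genes and for 16.8% of tested genes. In vip1-1 it held for 7 of the 9 and for 5.77% of tested genes. Replicate 2 had the highest value of both genes in wild-type high light, and without it the interactions were 2.7 and 2.5. Replicate 3 had the lowest value of both, and without it they were 1.96 and 2 (limma adjusted p = 0.0195 and 0.00863).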

How the results depend on the processing

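No change of the 9 genes that passed the threshold turned its direction in the alternatives run. All 45 changes kept their side of the threshold with a pseudocount of 0.1 or 10, no filter, a mean FPKM of at least 5, scaling on the FPKM total, no variance trend and the replicate block, which gave 9 genes for the light effect in wild type, 1 in vip1-1, 0 and 9 for the strains in control and high light, and 2 for the interaction. The light effect in vip1-1, 1 gene as reported, gave 2 under median centring (10.8% of all tested genes lower). It also gave 2 when the top 100 genes were kept out of the scaling total. It gave 0 under quantile normalization (6.88% of all tested genes lower) and at an adjusted p under 0.01. The count was 6 with library weights (5.48% of all tested genes lower) and with only the libraries compared (3.07%). The light effect in wild type, 9 as reported, gave 7 under quantile normalization, where 23.4% of all tested genes were lower. It also gave 7 with only the libraries compared (14.1% lower) and at an adjusted p under 0.01, and 8 without wild-type control replicate 1 (13.5% lower). Median centring kept all 9, where 26.9% of all tested genes were lower. The strain difference in control light, 0 as reported, gave 5 with library weights, 4 higher and 1 lower (14.7% and 55.3% of all tested genes), and 6 with only the libraries compared. That in high light gave 5 with only the libraries compared (6.37% of all tested genes higher). It gave 8 under quantile normalization (20.0% higher), where ATPG did not pass (limma adjusted p = 0.0728), and 7 at an adjusted p under 0.01. The interaction, 2 as reported, gave 8 with library weights (7.47% of all tested genes higher) and 1 at an adjusted p under 0.01. Leaving out 1 library moved the light effect in vip1-1 between 0 and 5, the strains in control light between 0 and 2 and the interaction between 2 and 9. The 2 in control light and the 9 for the interaction came without wild-type high light replicate 2. In control light 8.06% of all tested genes were higher and 30.5% lower in that fit, and for the interaction 5.85% were higher. For the light effect in vip1-1 the count was 0 without vip1-1 control replicate 1, vip1-1 control replicate 2 or vip1-1 high light replicate 3. It was 2 without vip1-1 high light replicate 1. The count was 5 without wild-type high light replicate 2 (5.03% of all tested genes lower) and 4 without wild-type high light replicate 3 (4.45% lower). Changes that did not pass had a sign that depended on the alternative for PETC (-0.34 to 0.37) and PETM (-0.7 to 0.19) in the light effect in vip1-1, and for PETC (-0.17 to 0.33), ATPC (-0.42 to 0.04) and ATPG (-0.35 to 0.18) between the strains in control light. Without replicate 2 of both high light groups the light effect in vip1-1 gave 5 genes, where 8.06% of all tested genes were lower. The strains in control light gave 2, PETO higher and ATPD lower (8.17% and 31.7% of all tested genes). The interaction gave 9, where 4.65% of all tested genes were higher. The causes were not tested. With 3 libraries a group and no known depth, changes that did not pass the threshold are not shown to be absent.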
